A study of Homo sapiens with 6 samples.

Results

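DLGAP1-AS2, LINC02193 and BHLHE40-AS1 are long noncoding RNA (lncRNA) genes whose RNA differed strongly between K562 cells with and without induced PCBP1. They are 3 of 62252 genes with transcripts in the data and 3 of the 5396 lncRNA genes with a mean above 10 counts. They were chosen by their estimated counts in these same libraries, as genes with a large change on induction, so the size of that change is described here and is not tested. K562 is a human erythroleukemia line. The cells were a polyclonal stable line, made from a single parental clone, with a cassette at the AAVS1 locus. The cassette was placed there by recombinase-mediated cassette exchange, carries Flag-tagged PCBP1 under a doxycycline (Dox)-inducible promoter, and confers puromycin resistance. The comparison was of 3 libraries without Dox (−Dox) and 3 with Dox (+Dox), and both groups carried the cassette, so an effect of Dox itself and an effect of PCBP1 cannot be told apart. The dose and duration of Dox for these libraries are not given in the sources used here, and nothing in the labels says that the 3 libraries of a group came from separate cultures, so p-values measure the spread between these libraries, which may be technical. Messenger RNA was sequenced to between 70905656 and 84177316 estimated counts per library.

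PCBP1, the gene of the cassette, had 20944, 20992 and 19936 counts in the −Dox libraries and 73062, 79189 and 84219 in the +Dox libraries. It was higher in every +Dox library, with a log2 fold change of 1.94 (SE 0.055, edgeR adjusted p = 5.235e-10). Of 12 genes listed as markers of K562 cells all were expressed, with HBG2 (fetal globin) at 3580 ± 248 CPM (counts scaled to the same library total) in −Dox and 3620 ± 181 in +Dox, and GATA1 (the erythroid transcription factor) at 164 ± 6.27 and 178 ± 5.20 (SD, n = 3). CPM values here include TMM factors, which correct for library composition.

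A lncRNA is a transcript without a recognized protein-coding frame, and many are spliced, capped and polyadenylated like mRNA. An antisense lncRNA is transcribed from the strand opposite a coding gene. It can start inside that gene, share its promoter region or lie in one of its introns, and its level may follow that of the coding gene or not. A name ending in AS gives the coding gene on the other strand, a LINC number is a serial number, and neither says what the RNA does. PCBP1 is a KH-domain protein that binds runs of cytosine in RNA and also carries iron in the cytosol.

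DLGAP1-AS2 (ENSG00000262001.3) lies at chr18:3603000-3610103 on the plus strand (GRCh38), within the body of DLGAP1 on the minus strand, and has 7 annotated transcripts. BHLHE40-AS1 (ENSG00000235831.8) lies at chr3:4896806-4980414 on the minus strand and also has 7 transcripts. Its start site is 977 bases inside BHLHE40, and from there it runs back across the start site of BHLHE40 on the other strand. LINC02193 (ENSG00000260923.7) lies at chr16:90173217-90222851 on the plus strand, close to the end of the chromosome arm, and has 15 transcripts. Because PCBP1 binds cytosine runs, the 60 bases with the most cytosines are shown for the transcript of each gene with the most counts, among stretches that share no run of 31 bases with another gene. Capitals mark runs of 3 or more cytosines. The stretches are at chr18:3603832-3603891 (plus strand), chr16:90215979-90216038 (plus strand) and chr3:4959254-4959313 (minus strand).
DLGAP1-AS2-201: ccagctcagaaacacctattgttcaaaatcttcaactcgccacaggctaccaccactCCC
LINC02193-205: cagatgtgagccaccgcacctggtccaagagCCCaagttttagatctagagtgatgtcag
BHLHE40-AS1-206: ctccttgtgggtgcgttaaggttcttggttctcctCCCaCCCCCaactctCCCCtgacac

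The stretch of BHLHE40-AS1-206 holds 24 cytosines with 3 runs, that of DLGAP1-AS2-201 also 24 with a single run at its end, and that of LINC02193-205 holds 15. Over their whole length the 3 transcripts were not rich in cytosine. DLGAP1-AS2-201 (2261 bases) was 23.0% cytosine, LINC02193-205 (2328 bases) 23.8% and BHLHE40-AS1-206 (2696 bases) 24.4%, beside a median of 23.4% for the most counted transcript of each of 5396 lncRNA genes. CCCC occurred 2.65, 4.30 and 3.34 times per kb in that order, and the median was 3.73. All 3 were longer than the median of 1540 bases.

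RefSeq (GRCh38.p14) gives a promoter window, from 250 bases before to 50 after a start site, for DLGAP1-AS2, BHLHE40-AS1 and BHLHE40, matched by symbol. The windows of DLGAP1-AS2 (chr18:3603487-3603786, plus strand) and BHLHE40 (chr3:4979187-4979486, plus strand) are shown because RNA of both genes was lower in +Dox. Capitals mark CACGTG, the E-box word bound by many helix-loop-helix factors, BHLHE40 among them, and TGACTCA or its reverse complement TGAGTCA, the word bound by AP-1.
DLGAP1-AS2: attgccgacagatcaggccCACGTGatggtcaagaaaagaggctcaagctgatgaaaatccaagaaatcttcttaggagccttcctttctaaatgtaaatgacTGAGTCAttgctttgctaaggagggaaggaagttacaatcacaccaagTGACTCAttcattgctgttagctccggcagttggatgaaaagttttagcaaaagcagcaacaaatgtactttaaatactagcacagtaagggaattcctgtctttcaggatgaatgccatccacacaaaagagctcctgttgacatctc
BHLHE40: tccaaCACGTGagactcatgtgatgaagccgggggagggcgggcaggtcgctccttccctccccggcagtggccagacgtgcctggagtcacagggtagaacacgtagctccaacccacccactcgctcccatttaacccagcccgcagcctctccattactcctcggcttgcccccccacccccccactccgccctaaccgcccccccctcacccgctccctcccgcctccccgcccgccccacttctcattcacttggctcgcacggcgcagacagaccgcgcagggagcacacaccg

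RefSeq's start site for DLGAP1-AS2 is next to that of the transcript DLGAP1-AS2-201. The gene as annotated in GENCODE begins further upstream, with DLGAP1-AS2-202 at 3603000, so the window shown lies inside the single exon of DLGAP1-AS2-202. The E-box stands 231 bases before the RefSeq start of DLGAP1-AS2 and 245 bases before that of BHLHE40, and 7.26% of 35116 RefSeq promoter windows hold it on either strand. TGACTCA or its reverse complement stands 99 and 147 bases before the RefSeq start of DLGAP1-AS2. It occurs at least once in 4.95% of windows and at least 2 times in 0.222%. The AP-1 word was searched for after the sequence had been read. AGATAA, the word of GATA factors (10.3% of windows), was found in neither. ACGTG, the core of a hypoxia response element (21.4% of windows), lies within the E-box of both windows, and in BHLHE40 also 174 bases and, as CACGT, 149 bases before the start. The windows differ in base composition, with 42.0% GC in DLGAP1-AS2 and 68.0% in BHLHE40. RefSeq's windows for BHLHE40-AS1 belong to transcripts with at most 3 counts in any library and hold none of these words, and they are not shown. A word in a window is a match of letters. Binding was not measured.

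A gene was called differentially expressed when its adjusted p was under 0.05 and its log2 fold change was beyond 1 in either direction. Of 21045 genes tested 308 (1.46%) were called, and of 5396 lncRNA genes 93 (1.72%), 45 higher (0.834%) and 48 lower (0.89%) in +Dox. The 2 groups did not overlap in CPM for 33.2% of all genes tested and for 21.8% of lncRNA genes, and they did not overlap for any of the 3 genes. The lncRNA genes called with a mean of at least 1 CPM numbered 32, of which 14 were higher and 18 lower. By absolute log2 fold change DLGAP1-AS2 ranked 3, BHLHE40-AS1 15 and LINC02193 32 among these, so LINC02193 was the closest of them to the fold limit. In TPM, Salmon's measure that accounts for transcript length and depth, LINC02193 was above 98.5% of tested lncRNA genes, DLGAP1-AS2 above 96.8% and BHLHE40-AS1 above 42.2%. The first 2 are thus high in TPM among the lncRNA genes tested in this poly(A) RNA, and BHLHE40-AS1 is near the middle. The place of LINC02193 is uncertain, because 69.9% of its runs of 31 bases also occur in other genes. Its 377-base transcript LINC02193-201 held 21.7% of its TPM in −Dox and 18.8% in +Dox, from means of 60.7 and 86.9 counts.

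**Figure D1:**
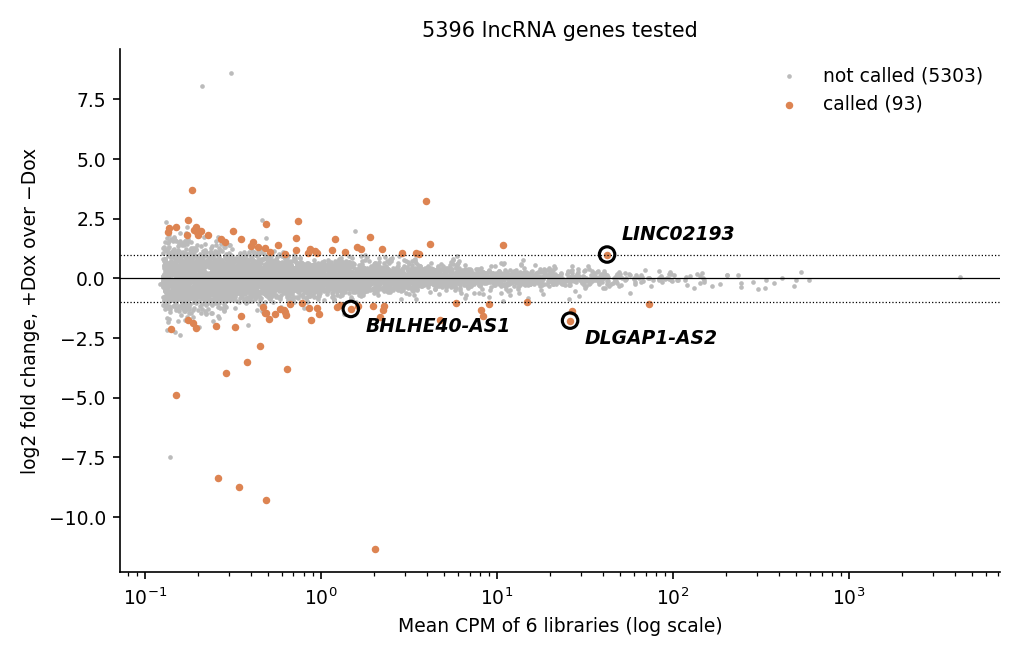
Log2 fold change (+Dox over −Dox) against mean CPM of 6 libraries on a log scale for the 5396 lncRNA genes tested, with the 93 called genes in orange, the fold limit dotted and the 3 genes circled. DLGAP1-AS2 and LINC02193 lie to the right at 26.1 and 42.3 CPM, LINC02193 on the limit, and BHLHE40-AS1 lies at 1.48 CPM.

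DLGAP1-AS2 had 3403, 2966 and 3184 estimated counts in the −Dox libraries and 777, 997 and 1032 in the +Dox libraries. In CPM these were 40.2, 38.1 and 42.6 without Dox and 10.9, 11.8 and 12.7 with Dox. All 3 +Dox libraries lay far below the lowest −Dox library, and the spread within a group was small (5.64% of the mean in −Dox and 7.46% in +Dox). The mean was 3.41-fold lower in +Dox, from 40.3 ± 2.27 to 11.8 ± 0.881 CPM (SD, n = 3). On the log2 scale the difference was −1.77 (SE 0.070). In TPM it was 29.1 ± 1.33 in −Dox and 9.29 ± 0.727 in +Dox. In bulk RNA, fewer cells that express a gene and less RNA per cell cannot be told apart.

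The lower level of DLGAP1-AS2 was spread over 6 of its 7 transcripts. DLGAP1-AS2-201, with 2 exons the longest and most abundant, had 11.8, 10.4 and 13.02 TPM without Dox and 2.78, 2.77 and 3.19 with Dox, a 4.03-fold difference. The unspliced DLGAP1-AS2-202 went from a mean of 6.53 to 2.28 TPM and the 3-exon canonical transcript DLGAP1-AS2-206 from 5.23 to 1.84 TPM. The groups did not overlap for 6 of the 7 transcripts, and the exception, DLGAP1-AS2-205, was higher on average in +Dox (0.475 ± 0.559 TPM against 0.219 ± 0.152) and held at most 39.7 counts in any library. The gene was chosen on this same contrast, so this count is a description, and the share over all transcripts was not computed. DLGAP1-AS2-201 held 40.4% ± 2.69 of the gene's TPM in −Dox and 31.5% ± 3.44 in +Dox. This difference of −8.88 percentage points gave an exact permutation p of 0.1 (two-sided, n = 3 per group), the smallest that 3 against 3 allows, and 0.3 after adjustment over the 3 genes.

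DLGAP1, a scaffold protein of the postsynaptic density, surrounds DLGAP1-AS2 on the other strand but shares no exon base with it. It was barely detected, with 12, 8 and 18 counts in −Dox and 21, 8 and 6 in +Dox, and the groups overlapped. Its log2 fold change was −0.08 (SE 0.65, edgeR adjusted p = 0.958) with a 95% interval of −1.49 to 1.33. Without +Dox library 1 it was −0.92 (SE 0.70, adjusted p = 0.465), so at this depth neither a change nor its absence could be shown.

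TGIF1, a homeobox repressor of TGF-β and SMAD signalling, is the nearest coding gene to the left, 143022 bases away. It had 39.1, 39.3 and 38.7 CPM in −Dox and 26.5, 26.5 and 28.4 in +Dox, and the groups did not overlap. It fell with a log2 fold change of −0.52 (SE 0.054, edgeR adjusted p = 4.474e-05), and its adjusted p stayed between 4.703e-15 and 0.000626 under every alternative. The level of DLGAP1-AS2 in TPM was 85.0%, 83.8% and 93.5% of that of TGIF1 in −Dox and 38.3%, 39.1% and 38.7% in +Dox, so the lncRNA was the lower by more. MYL12B (a myosin light chain), 324539 bases to the left, was at 0.0020 on the log2 scale (edgeR adjusted p = 0.985). ZBTB14 (a zinc-finger repressor), 1678916 bases to the right, was at 0.02 (adjusted p = 0.883). AKAIN1, 1532808 bases to the right, had at most 2 counts and was not tested.

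DLGAP1-AS1, a lncRNA gene on the same strand that ends 4637 bases before DLGAP1-AS2 begins, was named after its values were seen. It had 351, 307 and 263 counts in −Dox and 144, 184 and 259 in +Dox, with +Dox library 3 just under the lowest −Dox library. Its log2 fold change was −0.65 (SE 0.18, edgeR adjusted p = 0.026). The adjusted p was above 0.05 without −Dox library 1 (0.0567), −Dox library 2 (0.0626), +Dox library 1 (0.105) or +Dox library 2 (0.0903). In TPM, DLGAP1-AS2 was 5.89-fold above DLGAP1-AS1 in −Dox and 2.73-fold in +Dox.

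BHLHE40-AS1 was much less abundant, with 164, 149 and 183 counts in −Dox and 66, 78 and 60 in +Dox. In CPM these were 1.94, 1.91 and 2.45 without Dox and 0.930, 0.922 and 0.739 with Dox. The groups did not overlap, although the spread within a group was wider than for the other two genes. The mean was 2.43-fold lower in +Dox, from 2.10 ± 0.303 to 0.864 ± 0.108 CPM (SD, n = 3). On the log2 scale the difference was −1.28 (SE 0.21). At most 183 counts in a library stand behind these values.

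**Figure D2:**
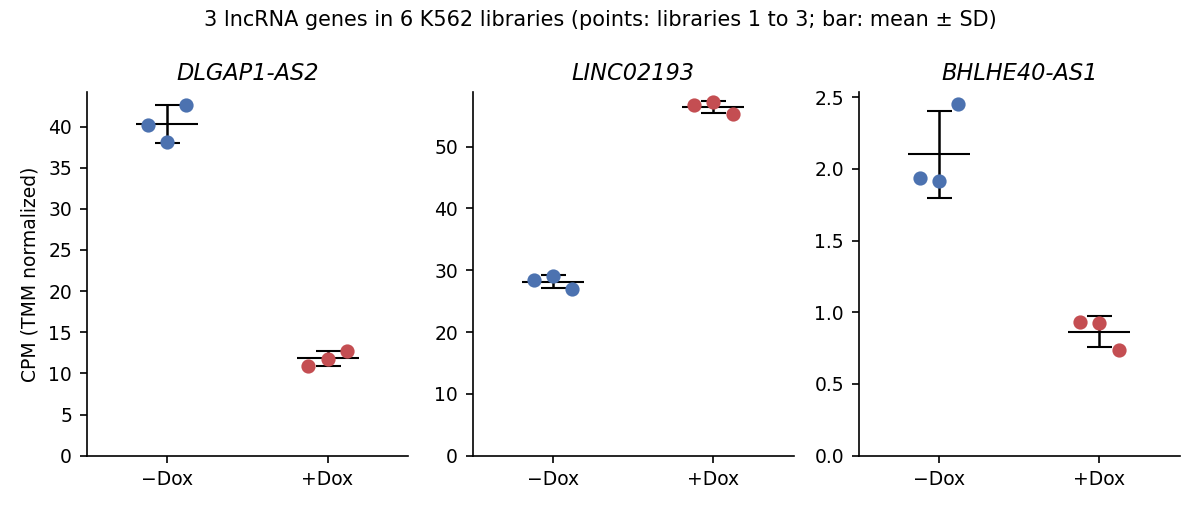
CPM in each library, with the mean ± SD of 3 libraries per group and an axis from 0 for each gene. In all 3 genes the −Dox (blue) and +Dox (red) libraries are apart, with DLGAP1-AS2 and BHLHE40-AS1 lower in +Dox and LINC02193 higher.

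BHLHE40 encodes a helix-loop-helix repressor of the circadian clock and of stress-regulated genes. It had 105, 108 and 127 CPM in −Dox and 54.5, 56.7 and 66.1 in +Dox, and the groups did not overlap. Its mean was 113 ± 11.7 CPM in −Dox and 59.1 ± 6.14 CPM in +Dox (SD, n = 3). BHLHE40 fell, with −0.94 on the log2 scale (SE 0.081, edgeR adjusted p = 1.008e-05), just short of the fold limit and so not called differentially expressed. Without +Dox library 3 it was −1.025 (edgeR adjusted p = 6.516e-05), past both limits for a call. Its adjusted p was at most 0.000155 under every alternative.

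BHLHE40-AS1 and BHLHE40 thus differed in the same direction. In TPM the lncRNA was at 1.61%, 1.77% and 1.91% of BHLHE40 in the −Dox libraries and at 1.66%, 1.68% and 1.16% in the +Dox libraries. These ranges overlapped. The 2 genes share 451 exon bases on opposite strands, 8.40% of the exon bases of BHLHE40-AS1 and 12.8% of those of BHLHE40, and how strand was set in the quantification is not given in the sources used here. Without strand, reads from these bases cannot be assigned to either gene. The 4 transcripts of BHLHE40-AS1 with shared bases had 149, 131 and 169 counts in −Dox and 54.3, 69.4 and 51.6 in +Dox. The 3 transcripts with none had 14.5, 17.8 and 13.7 counts in −Dox and 12.0, 9.0 and 7.99 in +Dox. Both sets were lower in every +Dox library, but the second held only 46.0 counts in −Dox and 29.0 in +Dox in all, a smaller ratio than the first. The part that reads of BHLHE40 have in the values of BHLHE40-AS1 was not tested.

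The canonical BHLHE40-AS1-206, with 4 exons, carried most of the gene. It had 0.606, 0.453 and 0.763 TPM without Dox and 0.168, 0.188 and 0.218 with Dox, a 3.17-fold difference. Its share of the gene's TPM was 75.3% ± 10.1 in −Dox and 58.5% ± 13.7 in +Dox, and the groups overlapped (difference −16.8 percentage points, exact permutation p = 0.2, adjusted 0.3, n = 3 per group). BHLHE40-AS1-201 went from 20.8 ± 10.9 to 15.9 ± 14.1 counts, with overlap. The other transcripts had means of at most 11.7 counts in either group.

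Of the coding genes beyond BHLHE40, EDEM1, which takes part in the disposal of misfolded glycoproteins in the endoplasmic reticulum, lies 207232 bases to the right. It had 36.2, 33.0 and 35.4 CPM in −Dox and 27.0, 30.9 and 29.2 in +Dox, and fell with a log2 fold change of −0.26 (SE 0.064, edgeR adjusted p = 0.0135). The adjusted p was above 0.05 without −Dox library 3 (0.0515) or +Dox library 1 (0.0649). To the left, ITPR1 (an inositol trisphosphate receptor) had −0.01 (adjusted p = 0.918) and SUMF1 (which activates sulfatases) 0.26 (adjusted p = 0.101).

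LINC02193 had 2407, 2264 and 2019 counts in −Dox and 4021, 4833 and 4490 in +Dox. In CPM these were 28.4, 29.1 and 27.0 without Dox and 56.7, 57.2 and 55.3 with Dox. The libraries of a group were close together, the groups were far apart, and the mean was 2.0-fold higher in +Dox, from 28.2 ± 1.05 to 56.4 ± 0.958 CPM (SD, n = 3). The log2 fold change was 1.0 (SE 0.053), at the fold limit. With each library left out in turn it lay between 0.97 and 1.02, and in 8 of 13 settings of the fit, DESeq2 (0.99) among them, LINC02193 was not past the limits for a call. In TPM the level was 27.0 ± 3.55 in −Dox and 48.1 ± 3.66 in +Dox.

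Of all runs of 31 bases in the transcripts of LINC02193, 69.9% also occur in transcripts of other genes, beside 10.5% in DLGAP1-AS2 and 15.5% in BHLHE40-AS1. The genes that share most are the lncRNA genes ENSG00000238009 (48.2% of the runs) and ENSG00000291147 (31.7%) and the transcribed pseudogene ENSG00000228463 (29.7%). The split of reads among such copies is uncertain. Their log2 fold changes were 0.21 (edgeR adjusted p = 0.213), 0.44 (SE 0.066, adjusted p = 7.146e-04) and 0.20 (SE 0.051, adjusted p = 0.0194). None of these 3 was called. The 13 transcripts of LINC02193 with more than 80% shared runs went from 14.8 ± 0.857 to 31.02 ± 1.84 TPM, 2.10-fold, and held 89.5% of the counts. The other 2, LINC02193-201 and LINC02193-202, went from 16.7, 8.71 and 11.2 TPM in −Dox to 15.6, 19.2 and 16.4 in +Dox, 1.40-fold, with overlap at −Dox library 1.

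The transcripts of LINC02193 did not differ by the same factor. Of the 12 with a mean of at least 10 counts all had a higher mean TPM in +Dox, from 1.29-fold in LINC02193-210 to 5.54-fold in LINC02193-211, and 9 had no overlap between the groups. LINC02193 too was chosen on this contrast, so these counts are a description, and no share over all transcripts was computed. LINC02193-205, with the most counts, had 5.98, 4.95 and 4.73 TPM without Dox and 8.01, 7.93 and 8.0 with Dox. The canonical LINC02193-208 went from 0.944 ± 0.144 to 3.02 ± 0.856 TPM, 3.19-fold, and LINC02193-214 from 1.03 ± 0.447 to 3.92 ± 0.382, 3.81-fold. The short LINC02193-201 (377 bases) had the highest mean TPM over the 6 libraries and held 31.7%, 15.5% and 17.8% of the gene in −Dox and 18.0%, 20.3% and 18.3% in +Dox. The difference of −2.86 percentage points gave an exact permutation p of 1.0 (adjusted 1.0, n = 3 per group), and turned to 2.15 without −Dox library 1.

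**Figure D3:**
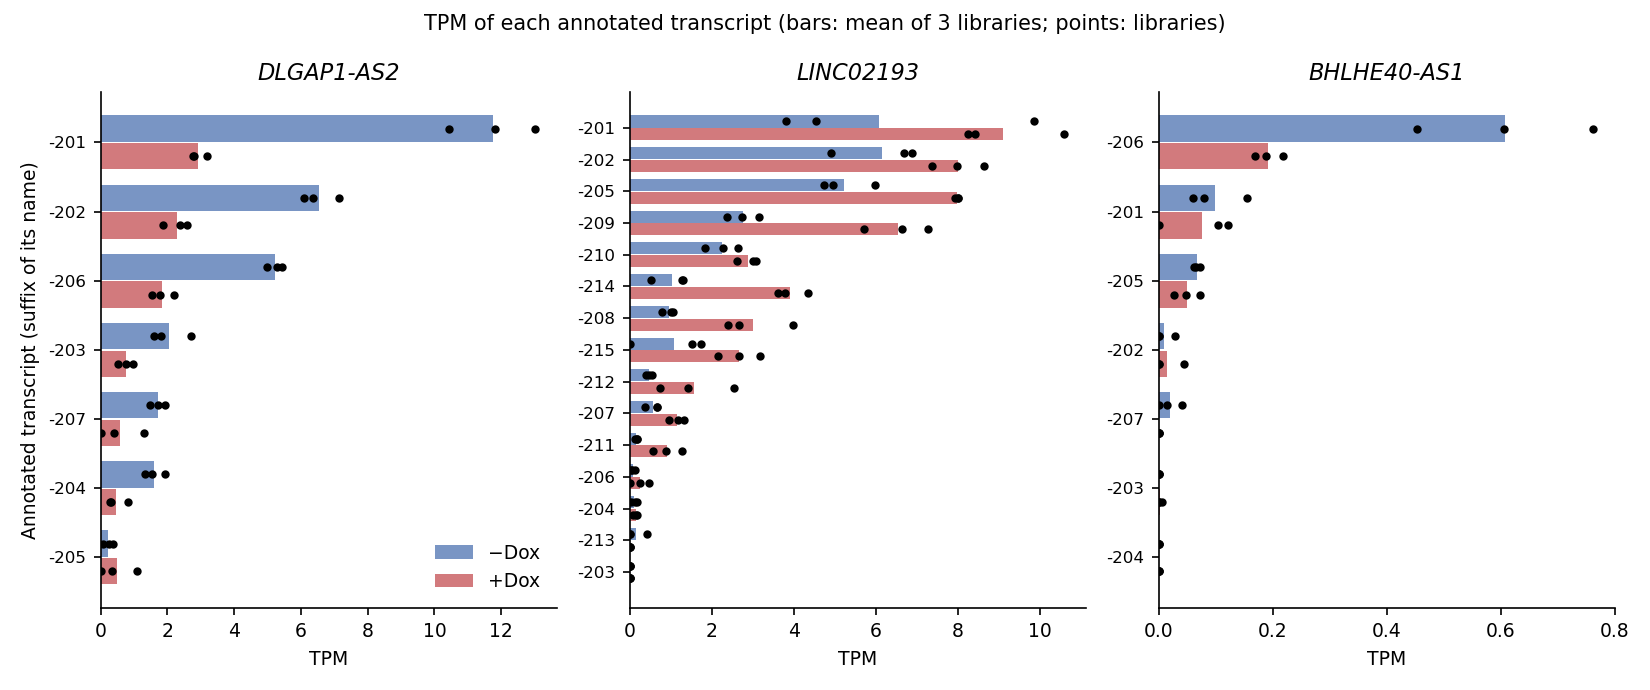
TPM of each annotated transcript, named by its suffix, with bars for the mean of 3 libraries (blue −Dox, red +Dox) and points for libraries. The longest bars of DLGAP1-AS2 and BHLHE40-AS1 are shorter in +Dox, and those of LINC02193 longer by amounts that vary between transcripts.

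In GENCODE 44 no coding gene lies to the right of LINC02193. To the left, PRDM7, a histone methyltransferase gene related to PRDM9, is 81145 bases away and had 21, 15 and 14 counts in −Dox and 10, 0 and 10 in +Dox. Its log2 fold change was −1.26 (SE 0.79, edgeR adjusted p = 0.331), with a 95% interval of −2.97 to 0.45. It was −1.76 without +Dox library 1 and −0.66 without +Dox library 2, the library at 0 counts. GAS8, a part of the complex that regulates dynein in motile cilia, had 14.2, 15.3 and 15.0 CPM in −Dox and 19.0, 17.2 and 16.6 in +Dox, without overlap. Its log2 fold change was 0.25 (SE 0.072, adjusted p = 0.0345), but the adjusted p was 0.0852, 0.0749 and 0.0808 without −Dox libraries 1, 2 and 3, 0.148 and 0.0646 without +Dox libraries 1 and 2, and 0.0714 with the replicate number in the model.

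FAM157C, a lncRNA gene that overlaps LINC02193 on the same strand and shares 169 exon bases with it, had 24.3, 20.5 and 23.3 CPM in −Dox and 29.2, 28.7 and 26.5 in +Dox. It rose with a log2 fold change of 0.31 (SE 0.071, edgeR adjusted p = 0.010), and the adjusted p was 0.0552 without −Dox library 2. In TPM, LINC02193 was 1.44-fold above FAM157C in −Dox and 1.96-fold in +Dox. CICP25, a pseudogene on the other strand within the body of LINC02193, had 8 to 13 counts in −Dox and 27 to 29 in +Dox. The groups did not overlap and the log2 fold change was 1.42 (SE 0.47, adjusted p = 0.0597).

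**Figure D4:**
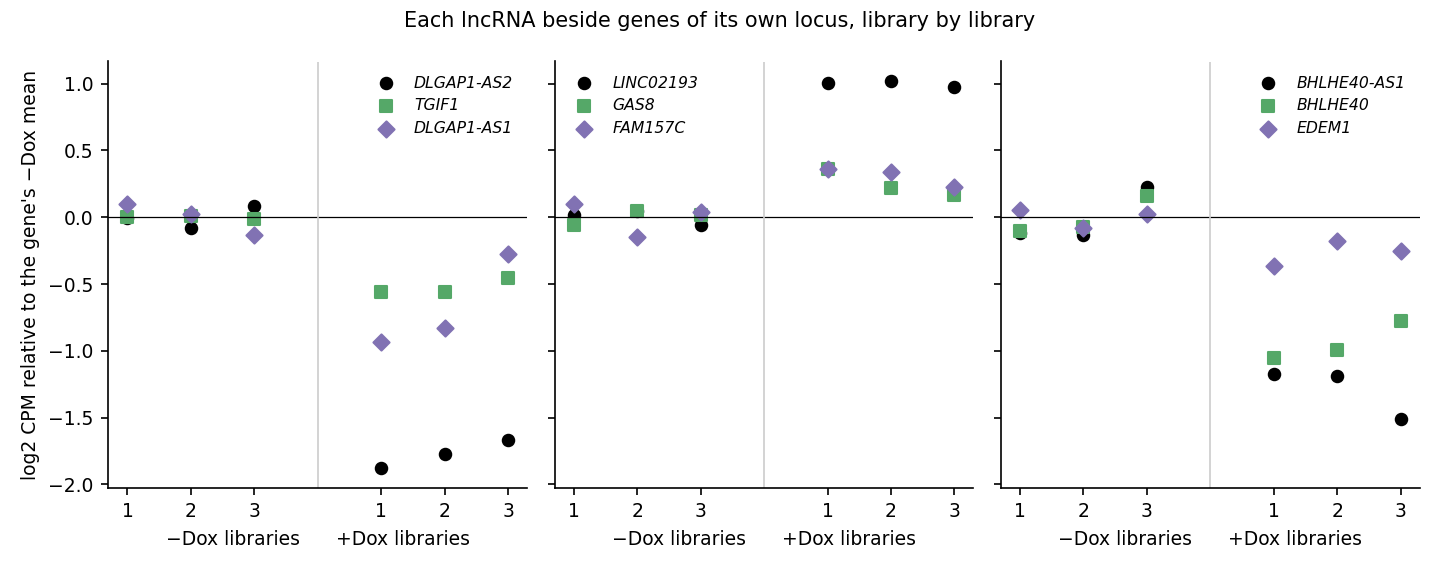
Log2 CPM of each library relative to the gene's own −Dox mean, for each lncRNA (black) and 2 genes of its locus. BHLHE40 (green) lies close to BHLHE40-AS1 in +Dox libraries 1 and 2 and further above it in +Dox library 3. In +Dox, BHLHE40 and the other genes shown lie between 0 and the lncRNA of their locus.

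Of the 11 coding neighbours tested, 4 passed an adjusted p of 0.05 (TGIF1, BHLHE40, EDEM1 and GAS8) and none was called at the fold limit. BHLHE40 was past that limit when +Dox library 3 was left out. These neighbours were taken by order with no limit on distance, and ZBTB14 lies 1678916 bases from DLGAP1-AS2. Over all genes tested 15.8% passed 0.05 (8.16% higher and 7.68% lower in +Dox), and 20.8% of protein-coding genes. Of all 5396 lncRNA genes, the nearest coding gene was tested for 4543 and passed 0.05 for 22.7% of these. Of the 93 called lncRNA genes it was tested for 76 and passed for 28 (36.8%), with 23 in the direction of the lncRNA and 5 in the other. Over all lncRNA genes the direction was shared in 664 and opposite in 369. Genes that lie together can share reads and position, and no test was made of these shares.

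Within 500 kb of the start site of DLGAP1-AS2, 9 genes were tested, and 1 passed 0.05 higher (MYL12A, log2 fold change 0.37, SE 0.049, edgeR adjusted p = 3.341e-04) and 2 lower (TGIF1 and DLGAP1-AS1). Around BHLHE40-AS1, 8 were tested, and 1 passed higher (ITPR1-DT, 0.42, SE 0.13, adjusted p = 0.0413) and 2 lower (BHLHE40 and EDEM1). Around LINC02193, 22 were tested, and 4 passed higher (VPS9D1, 0.62, adjusted p = 0.00434; TUBB3, 0.39, adjusted p = 0.0405; FAM157C and GAS8) and 1 lower (ZNF276, −0.26, adjusted p = 0.0357). None of these genes was called, against 1.46% of all genes tested, though BHLHE40 was past both limits without +Dox library 3. MYL12A, VPS9D1, TUBB3, ZNF276 and ITPR1-DT were named after their values were seen.

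Of these, MYL12A and VPS9D1 kept an adjusted p under 0.05 without any single library. TUBB3 did not without −Dox library 1 (0.110) or 2 (0.123) or +Dox library 1 (0.147) or 3 (0.113). ZNF276 did not without −Dox library 1 (0.0550) or 3 (0.127) or +Dox library 2 (0.0650) or 3 (0.134). ITPR1-DT did not without −Dox library 2 (0.123) or 3 (0.121) or any +Dox library (0.0914, 0.116 and 0.0893 for libraries 1, 2 and 3).

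**Figure D5:**
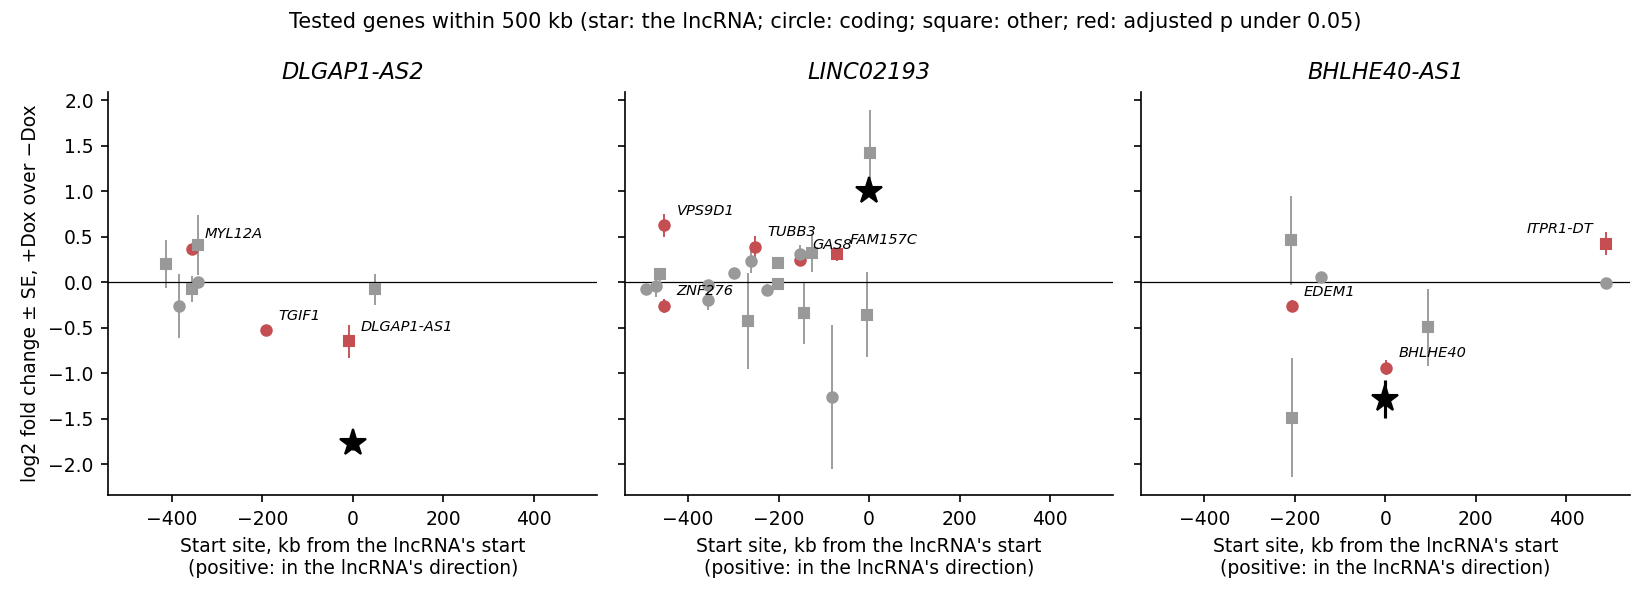
Log2 fold change ± SE of tested genes against the distance of their start site from that of each lncRNA (star), in kb and positive in the direction of the lncRNA's own transcription. Circles are coding genes, squares other genes, and red marks an adjusted p under 0.05. BHLHE40 is the coding gene nearest in value to its lncRNA, and the region beyond the start of LINC02193 holds CICP25 alone among the genes tested.

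Because BHLHE40 belongs to the circadian clock, 24 clock genes were listed, of which 20 were tested. Against 15.8% of all genes and 20.8% of protein-coding genes, 6 passed 0.05, 1 higher and 5 lower in +Dox, and the median log2 fold change was −0.11, beside 0.01 for all genes tested. NR1D1, the REV-ERBα repressor, had 3.45, 3.20 and 3.51 CPM in −Dox and 1.52, 1.72 and 1.39 in +Dox and was the one clock gene called, with a log2 fold change of −1.13 (SE 0.16, edgeR adjusted p = 4.428e-04). PER3 (−0.28, adjusted p = 0.00206), CSNK1E, the casein kinase that phosphorylates PER proteins (−0.21, adjusted p = 0.0170), and PER1 (−0.35, adjusted p = 0.0178) also fell. CLOCK (−0.02, adjusted p = 0.908), CRY1 (−0.01, adjusted p = 0.944) and BMAL1 (0.19, adjusted p = 0.748) did not pass. PER1, CLOCK, CRY1 and BMAL1 here, and SMAD2, SMAD3 and EPOR, were named after their values were seen. Without −Dox library 3 only 3 members of the list passed. The adjusted p of CSNK1E was 0.0764, 0.0634 and 0.0548 without −Dox library 3, +Dox library 1 and +Dox library 2, and that of PER1 was 0.0622, 0.0643 and 0.0595 without −Dox library 2, −Dox library 3 and +Dox library 3. BHLHE40 and TGIF1 stand in these lists because they are neighbours, so they are counted here a second time.

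TGIF1 and 18 partners in SMAD signalling gave 18 genes tested, of which 1 passed 0.05 higher and 3 lower, beside 15.8% of all genes and 20.8% of protein-coding genes, with a median of −0.04. TGFBR1, the type I receptor for TGF-β, fell, with a log2 fold change of −0.49 (SE 0.055, edgeR adjusted p = 8.834e-05). SKIL (0.27, adjusted p = 0.0102) rose and SKI (−0.26, adjusted p = 0.0426) fell, both corepressors of SMAD proteins, and the adjusted p of SKI was 0.104, 0.176, 0.0632, 0.0810 and 0.161 without −Dox library 2 or 3 or +Dox library 1, 2 or 3. SMAD2 (0.08, adjusted p = 0.317) and SMAD3 (−0.08, adjusted p = 0.490) did not pass.

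Of 18 genes of the DLGAP family and its scaffold partners 16 were tested, and 3 passed higher and 1 lower, beside the same 15.8% and 20.8%, with a median of −0.07. DLG3 (0.46, SE 0.076, edgeR adjusted p = 0.00140) and DLGAP5, a mitotic spindle protein of the family (0.24, SE 0.047, adjusted p = 0.00475), rose, and HOMER1 fell (−0.29, SE 0.062, adjusted p = 0.00768). DLG1 (0.16, adjusted p = 0.0353) did not pass without any one of the 6 libraries (adjusted p 0.0590 to 0.137).

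The genes most like each lncRNA over the 6 libraries were found by the root mean square difference of log2 CPM, relative to the −Dox mean, among 14330 genes with a mean of at least 1 CPM. They were chosen for their likeness, and their values are a description. For DLGAP1-AS2 these were CALB1 (a calcium-binding protein, difference 0.0933), LINC00261 (0.157) and CD24 (a surface glycoprotein, 0.163). CALB1 had 34.4, 35.0 and 41.8 CPM in −Dox and 10.9, 10.6 and 12.8 in +Dox. For LINC02193 they included SCIN (an actin-severing protein, 0.0474) and TENT5C (a poly(A) polymerase, 0.0542). TENT5C had 26.6, 29.6 and 27.3 CPM in −Dox and 55.7, 54.9 and 51.5 in +Dox. For BHLHE40-AS1 they were CXCL2 (a chemokine, 0.132), NR1D1 (0.145) and GNB3 (a G protein subunit, 0.154), and CXCL2 had 1.81, 2.17 and 2.74 CPM in −Dox and 0.972, 0.946 and 0.924 in +Dox. All these genes share the 6 libraries and the contrast with the lncRNAs, and their groups did not overlap.

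Of the 12 K562 markers 4 rose (EPOR, TAL1 and KLF1 among them) and 3 fell (TFRC, HBZ and LMO2) at an adjusted p under 0.05. Over all genes tested 15.8% passed 0.05, and 20.8% of protein-coding genes. The summed level of the 12 markers was 8860, 10010 and 9028 CPM in −Dox and 9335, 8594 and 9022 in +Dox. EPOR, the erythropoietin receptor, went from 16.2 ± 0.705 to 31.8 ± 1.14 CPM. Of the markers of other cells, MS4A1 was at 0 counts in every library, and CD3E, COL1A2 and CD14 had at most 6, 13 and 14. The T cell marker CD3D was detected, at 20.9 ± 0.903 CPM in −Dox and 19.2 ± 6.26 in +Dox, as was COL1A1 of fibroblasts (1.68 ± 0.184 and 1.87 ± 0.161), and in both the groups overlapped. LYZ, the most abundant of 3 monocyte markers and the only one tested, moved with Dox, from 144 ± 25.0 to 104 ± 10.3 CPM (log2 fold change −0.47, edgeR adjusted p = 0.00837). The summed level of the 3 was 119, 144 and 169 CPM in −Dox and 98.6, 98.1 and 116 in +Dox. The part of these marker changes in the levels of the 3 lncRNAs was not tested.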

How the data were processed

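The authors sequenced poly(A) RNA of 6 K562 libraries as paired-end reads of 150 cycles, and per the labels quantified it with Salmon 1.10.2. For each transcript and library they deposited an estimated count, which is not scaled for depth or length, and a TPM, scaled for effective length and summing to 1000000 per library. Replicates were not pooled. Index, strand and bias settings are not given in the sources used here. Transcripts were matched to GENCODE 44 on GRCh38 (251612 of 252045), and estimated counts were summed per gene and rounded. The 433 unmatched held at most 0.138% of counts.

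The test was edgeR 4.0.16 (glmQLFit, glmQLFTest, TMM, two-sided), run on genes whose mean exceeded 10 counts, in R 4.3.3 with Benjamini-Hochberg adjustment over all genes tested, a step tested on simulated data. Calls needed an adjusted p under 0.05 and a log2 fold change beyond 1 in either direction. Neighbours were taken by position, the 2 nearest coding genes on each side and those that overlap. Named from each list were up to 4 genes by p. Shares of transcripts were compared by an exact permutation test. The alternatives were DESeq2 1.42.0, RLE factors, other count filters, log2 TPM with a pseudocount of 0.1 or 1, windows of 250 and 1000 kb, each library left out and the replicate number as a term. The 3 genes, the lists and the tests were chosen with earlier results of these data known. Some genes under these rules are not reported here.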

Additional observations from a re-analysis of the deposited data

How the results depend on the processing

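The direction of DLGAP1-AS2, LINC02193 and BHLHE40-AS1 was the same in all 14 alternatives. LINC02193 was not past the limits for a call in 8 of 13 settings of the fit: DESeq2 (0.99), RLE factors (0.99), the 3 other count filters, and without −Dox library 3, +Dox library 1 or +Dox library 2. Their log2 fold changes from TPM were −1.64, 0.84 and −1.05 with a pseudocount of 0.1 and −1.55, 0.82 and −0.43 with a pseudocount of 1, which understates low genes such as BHLHE40-AS1. With each library left out they were −1.82 to −1.72, 0.97 to 1.02 and −1.35 to −1.16. With no filter on counts 515 genes and 159 lncRNA genes were called (308 and 93), and 231 to 313 and 58 to 87 with each library left out, 58 without +Dox library 3. DESeq2 called 259 genes, 228 of them shared.

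Of the coding neighbours 2 to 4 passed 0.05 with each library left out, 2 without −Dox library 3 or +Dox library 1. Within the window around DLGAP1-AS2, 5 genes passed at 1000 kb (3 at 500 kb) and 2 to 3 with a library left out. Around LINC02193, 2 passed at 250 kb, 8 at 1000 kb and 2 to 4 with a library left out (5 with none left out). Around BHLHE40-AS1, 1 to 3 passed with a library left out, 1 without −Dox library 3 or +Dox library 1. Of the clock genes 3 to 6 passed with a library left out. The share of DLGAP1-AS2-201 differed by −10.3 to −6.96 percentage points with a library left out, that of BHLHE40-AS1-206 by −24.6 to −12.0, and that of LINC02193-201 by −5.95 to 2.15, the last reversed without −Dox library 1 (2.15). DLGAP1, MYL12B, ZBTB14 and ITPR1, which did not pass 0.05, changed sign in some alternatives. Where no construction shows it, the cause of these differences was not tested.

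The replicate number was also used as a block. Same-numbered libraries did not deviate together (correlations 0.0075, −0.060 and −0.0029), so the libraries share only a number. With the block 298 genes were called, and 3 genes passed around LINC02193, with GAS8 (adjusted p = 0.0714) and ZNF276 (0.0534) not among them. ITPR1-DT (0.0786), DLG1 (0.107) and SKI (0.0801) did not pass 0.05 either. ITPR1-DT and DLG1 did not pass it with a summed count above 10 (0.0604 and 0.0553) or with no filter (0.0694 and 0.0536). Counts were low in BHLHE40-AS1 (60 to 183 per library), DLGAP1 (6 to 21), PRDM7 (0 to 21) and CICP25 (8 to 29).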
